A study of Mus musculus with 6 samples.

Results

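Potassium channel genes are described here across mouse embryonic stem cells (ESC), neural progenitors (NPC) and cells labelled Phc1-KO. The members were all genes whose symbol begins with Kcn, which gave 96 gene models with 94 symbols among 37620 genes counted. Kcnb2 and Kcnh8 each had a pair of gene models. Of the 96, 73 had enough reads to be tested, 22 of the 23 others stayed under 15 counts in every library, and Kcnk16 was the one member with 0 counts in all 6 libraries. RNA was sequenced in 2 libraries per group, said by the labels to be biological replicates. The ESC were wild-type J1 cells grown with LIF and serum on inactivated mouse embryonic fibroblasts and depleted of those feeder cells before use. The wild-type NPC were differentiated in vitro from J1 ESC. The Phc1-KO libraries have the genotype Phc1-/- and were also derived from J1 ESC, but their labels disagree: the cell type entry says NPC while the series' design names stem cells. Phc1 encodes a subunit of Polycomb repressive complex 1, which holds developmental genes silent.

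Potassium channels let potassium leave or enter the cell down its gradient and so set the resting membrane potential and end action potentials. Voltage-gated channels are assembled from Kcna, Kcnb, Kcnc, Kcnd, Kcnq and Kcnh pore subunits and open when the membrane depolarises. Electrically silent subunits (Kcnf, Kcng, Kcns, Kcnv) form no channel alone but join Kcnb subunits and change their gating. Kcnma, Kcnn and Kcnt channels open with intracellular calcium or sodium, Kcnj channels pass current more easily inward, and tandem-pore Kcnk channels carry leak current. Kcnab, Kcne, Kcnip and Kcnmb proteins are auxiliary subunits that bind to the pore subunits. In the nervous system these genes shape firing in neurons, while glia use mainly Kcnj and Kcnk channels to take up and pass on potassium.

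Promoters of 6 genes from the results are shown first, a pair for each of 3 patterns, chosen after their values were seen and not by rank of change. Kcnd3 (chr3:105254558-105254857, plus strand) and Kcnc1 (chr7:53651588-53651887, plus strand) were the voltage-gated genes with the highest level in NPC. Kcnj3 (chr2:55288131-55288430, plus strand) and Kcnk5 (chr14:21000955-21001254, minus strand) were high in ESC and low in NPC. Kcne4 (chr1:78813236-78813535, plus strand) and Kcng3 (chr17:84031186-84031485, minus strand) were higher in Phc1-KO than in ESC. Each sequence runs 5′ to 3′ from 250 bases before to 50 bases after a RefSeq transcript start, was taken from a RefSeq table of build GRCm38.p6, and was placed on mm9 by its single exact match. Capitals mark CG dinucleotides, the sites of CpG methylation.
Kcnd3: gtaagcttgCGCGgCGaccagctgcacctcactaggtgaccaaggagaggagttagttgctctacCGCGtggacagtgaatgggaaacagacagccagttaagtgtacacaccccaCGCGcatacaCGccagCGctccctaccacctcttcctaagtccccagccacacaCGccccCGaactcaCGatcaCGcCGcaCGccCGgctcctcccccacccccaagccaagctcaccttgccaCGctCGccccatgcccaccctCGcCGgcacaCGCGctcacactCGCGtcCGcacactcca
Kcnc1: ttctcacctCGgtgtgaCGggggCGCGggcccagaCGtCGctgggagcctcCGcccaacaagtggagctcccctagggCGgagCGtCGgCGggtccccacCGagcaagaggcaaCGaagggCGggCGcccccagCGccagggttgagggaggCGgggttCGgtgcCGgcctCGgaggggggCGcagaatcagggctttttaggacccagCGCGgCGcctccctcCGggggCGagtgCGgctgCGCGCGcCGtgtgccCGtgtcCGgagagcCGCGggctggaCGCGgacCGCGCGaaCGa
Kcnj3: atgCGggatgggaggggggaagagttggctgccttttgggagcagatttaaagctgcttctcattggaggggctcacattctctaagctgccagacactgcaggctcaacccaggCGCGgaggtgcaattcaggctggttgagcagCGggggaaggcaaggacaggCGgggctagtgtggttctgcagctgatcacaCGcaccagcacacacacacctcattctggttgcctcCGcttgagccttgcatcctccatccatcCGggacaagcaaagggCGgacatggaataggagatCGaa
Kcnk5: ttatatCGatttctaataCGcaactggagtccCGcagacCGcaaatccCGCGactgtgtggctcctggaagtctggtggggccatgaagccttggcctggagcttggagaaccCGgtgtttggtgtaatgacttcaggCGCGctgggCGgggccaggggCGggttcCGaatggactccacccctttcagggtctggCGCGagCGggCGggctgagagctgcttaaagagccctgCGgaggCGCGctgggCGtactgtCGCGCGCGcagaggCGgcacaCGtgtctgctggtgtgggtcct
Kcne4: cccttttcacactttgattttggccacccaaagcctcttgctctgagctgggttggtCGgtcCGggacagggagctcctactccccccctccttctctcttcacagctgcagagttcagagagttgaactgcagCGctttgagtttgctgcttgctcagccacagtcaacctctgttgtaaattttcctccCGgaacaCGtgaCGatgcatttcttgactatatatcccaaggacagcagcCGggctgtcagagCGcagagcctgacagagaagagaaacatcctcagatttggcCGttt
Kcng3: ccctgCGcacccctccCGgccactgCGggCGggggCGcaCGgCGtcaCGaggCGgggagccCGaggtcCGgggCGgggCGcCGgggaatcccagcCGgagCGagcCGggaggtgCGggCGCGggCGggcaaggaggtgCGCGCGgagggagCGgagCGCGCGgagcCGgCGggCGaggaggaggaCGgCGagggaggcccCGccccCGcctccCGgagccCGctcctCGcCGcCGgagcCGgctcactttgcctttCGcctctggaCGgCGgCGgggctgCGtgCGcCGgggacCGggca
The 300 bases held 25 CG dinucleotides for Kcnd3, 41 for Kcnc1, 10 for Kcnj3, 26 for Kcnk5, 9 for Kcne4 and 49 for Kcng3. In each pair the counts of CG dinucleotides differed. The RefSeq table held 94 promoters for 69 of the 94 symbols, with a median of 9 CG dinucleotides, against a median of 7 over all 32851 promoters in the table. The median was 8 for the 47 promoters of members higher in NPC, 18 for the 9 of members lower in NPC and 14.5 for the 20 of tested members with no call in NPC. The GENCODE M1 model of Kcnd3 begins after the printed window, at base 105255248. Both strands were searched for 3 sets of letters that do not overlap one another. The E-box CAGCTG, a site of basic helix-loop-helix factors, was in 25.5% of the member promoters and in 16.3% of all promoters. Among the printed ones it was in those of Kcnd3, Kcnj3 and Kcne4. It was in 34.0% of the 47 promoters of members higher in NPC, and in 1 (11.1%) of the 9 of members lower in NPC. The 47 promoters came from 28 genes and some overlap, as for Kcnc2, so a gene can count more than once. The letters TTCAGCACC, from the left side of the RE1 element bound by the repressor REST, were in the Kcnh6 promoter alone among the members and in 0.371% of all promoters. The octamer ATGCAAAT was in 1 Kcnab2 promoter and in 1.74% of all promoters. These matches are descriptions of the letters and were not tested.

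The libraries held 15226214 to 21893821 counts in genes, so 1 count was worth 0.0484 to 0.0658 CPM (counts scaled by library size). Phc1 itself was at 460 and 461 CPM in ESC, 40.8 and 34.6 CPM in NPC and 326 and 267 CPM in Phc1-KO. The log2 fold change of this gene in Phc1-KO was -0.63 (SE 0.15, edgeR adjusted p = 0.0412), so its RNA was still counted in the libraries labelled Phc1-KO, which are called Phc1-KO by that label only, and which part of the gene was deleted is not given in the sources used here. Without ESC 1, ESC 2 or Phc1-KO 2 that call was lost. The 5 stem cell markers all fell in NPC and summed to 1759 to 1761 CPM in ESC, 6.77 to 7.08 CPM in NPC and 1708 to 2094 CPM in Phc1-KO. By this sum the Phc1-KO libraries stood with ESC and not with the NPC of their cell type entry. Of the 5, Nanog alone passed in Phc1-KO, as lower, at 136 and 112 CPM against 218 and 223 CPM in ESC (log2 fold change -0.83, edgeR adjusted p = 0.0245). Neural progenitor markers rose in NPC for 7 of 7 genes (205 to 216 CPM in ESC, 1657 to 3650 CPM in NPC, 181 to 199 CPM in Phc1-KO). Of the 7, Pax6 alone passed in Phc1-KO, as higher (log2 fold change 2.21, edgeR adjusted p = 0.00327). It was at 4.44 and 4.68 CPM in ESC, 21.0 and 16.9 CPM in NPC and 21.5 and 20.8 CPM in Phc1-KO. Fibroblast markers rose in NPC for 7 of 8 genes (370 to 379 CPM in ESC, 7108 to 11237 CPM in NPC) and in Phc1-KO for 4 of 8 (640 to 783 CPM). Astrocyte markers rose in NPC for 5 of 5 genes, from 16.5 to 16.6 CPM to 989 to 2092 CPM, and Aqp4 differed between NPC 1 (15.8 CPM) and NPC 2 (458 CPM). Macrophage markers fell in NPC for 5 of 5 genes and in Phc1-KO for 4 of 5 (29.3 to 29.9 CPM in ESC, 3.90 to 4.27 CPM in NPC, 10.7 to 11.5 CPM in Phc1-KO). Among these Emr1 was at 0 in both NPC libraries. No fibroblast marker was at 0 in any library. Of the other lists, 1 oligodendrocyte marker (Pdgfra) rose in both comparisons and 1 (Mbp) fell in NPC, neuron markers gave 3 rises and 2 falls in NPC and none in Phc1-KO, and 3 heart muscle and 2 endoderm markers fell in NPC and none passed in Phc1-KO. The part of these markers in the channel results was not tested, and in bulk RNA fewer cells of a type and less RNA per cell cannot be told apart.

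The genes with the highest levels in NPC were not those of ESC and Phc1-KO. Expressed per kilobase of exon, which allows genes to be set side by side, the highest mean levels in ESC were those of Kcnk1 (13.7 CPM per kb), Kcnk5 (13.4 CPM per kb) and Kcnj3 (7.22 CPM per kb). In NPC they were those of Kcnd3 (19.6 CPM per kb), Kcnj16 (12.9 CPM per kb), Kcnc1 (11.2 CPM per kb) and Kcnk2 (9.59 CPM per kb). Phc1-KO had the same leading genes as ESC, with Kcnk5 at 15.8, Kcnk1 at 15.1 and Kcnj3 at 5.46 CPM per kb, followed by Kcng3 at 3.51 and Kcne4 at 3.35 CPM per kb. The order at the top was not separated by the libraries everywhere. Kcnk1 (13.9 and 13.4 CPM per kb) and Kcnk5 (13.7 and 13 CPM per kb) overlapped in ESC, and Kcnd3 (31 and 8.14 CPM per kb), Kcnj16 (18.6 and 7.21 CPM per kb), Kcnc1 (16.4 and 5.88 CPM per kb) and Kcnk2 (9.96 and 9.23 CPM per kb) overlapped in NPC. In Phc1-KO, Kcnk5 (13.5 and 18 CPM per kb) and Kcnk1 (12.4 and 17.9 CPM per kb) overlapped as well.

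**Figure D1:**
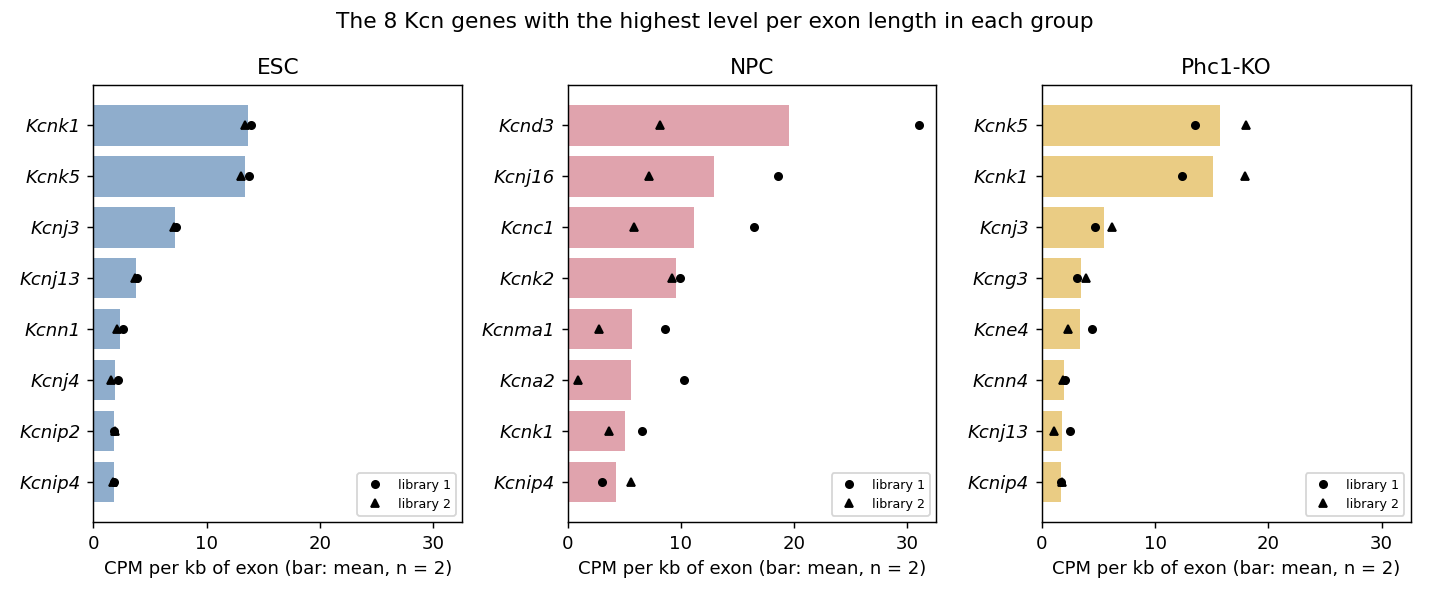
Level per kilobase of exon (CPM per kb, x axis from 0, bars for the mean of 2 libraries, circles for library 1 and triangles for library 2) of the 8 Kcn genes with the highest mean in each group. Kcnk1, Kcnk5 and Kcnj3 lead in ESC and Phc1-KO, and Kcnd3, Kcnj16, Kcnc1 and Kcnk2 lead in NPC, where NPC 1 lies above NPC 2 for each of these 4.

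Summed over all members, Kcn genes took 285 and 282 CPM in ESC, 934 and 492 CPM in NPC and 273 and 288 CPM in Phc1-KO. Kcnk5, Kcnk1 and Kcnj3 made up 40.8% and 39.6% of this sum in ESC, 2.21% and 2.49% in NPC, and 36.1% and 46.6% in Phc1-KO. In NPC, Kcnd3 and Kcnc1 alone made up 47.9% of the sum in NPC 1 and 26.8% in NPC 2. The gap between the NPC libraries narrowed without those genes, to 487 and 360 CPM, and both stayed above the 283 and 279.95 CPM of ESC. Members with a mean above 1 CPM numbered 44 in ESC, 53 in NPC and 42 in Phc1-KO, and those above 10 CPM numbered 3, 15 and 5.

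Most of the tested potassium channel genes differed between NPC and ESC, and more of them rose than fell. By edgeR's quasi-likelihood test with Benjamini-Hochberg adjustment over all genes, 35 of 73 members were higher in NPC than in ESC, 13 were lower and 25 did not pass. Across all 17489 genes tested 61.3% passed, 30.4% as higher and 30.9% as lower, so the members' 65.8% is close to the share over all genes. The median log2 fold change of the members was 0.62, against -0.01 over all genes. Changes over 10-fold were seen for 13 of the 35 higher and 6 of the 13 lower members. The counts depended on single libraries. The ESC pair differed by a biological coefficient of variation of 1.98%, against 27.5% for NPC and 18.1% for Phc1-KO. Without ESC 1 or ESC 2 the higher members numbered 22 and 23, and without NPC 1 the lower members numbered 20. Of the 48 calls, 31 were kept in every alternative that tested them, apart from the test against a 2-fold change, and none changed direction.

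**Figure D2:**
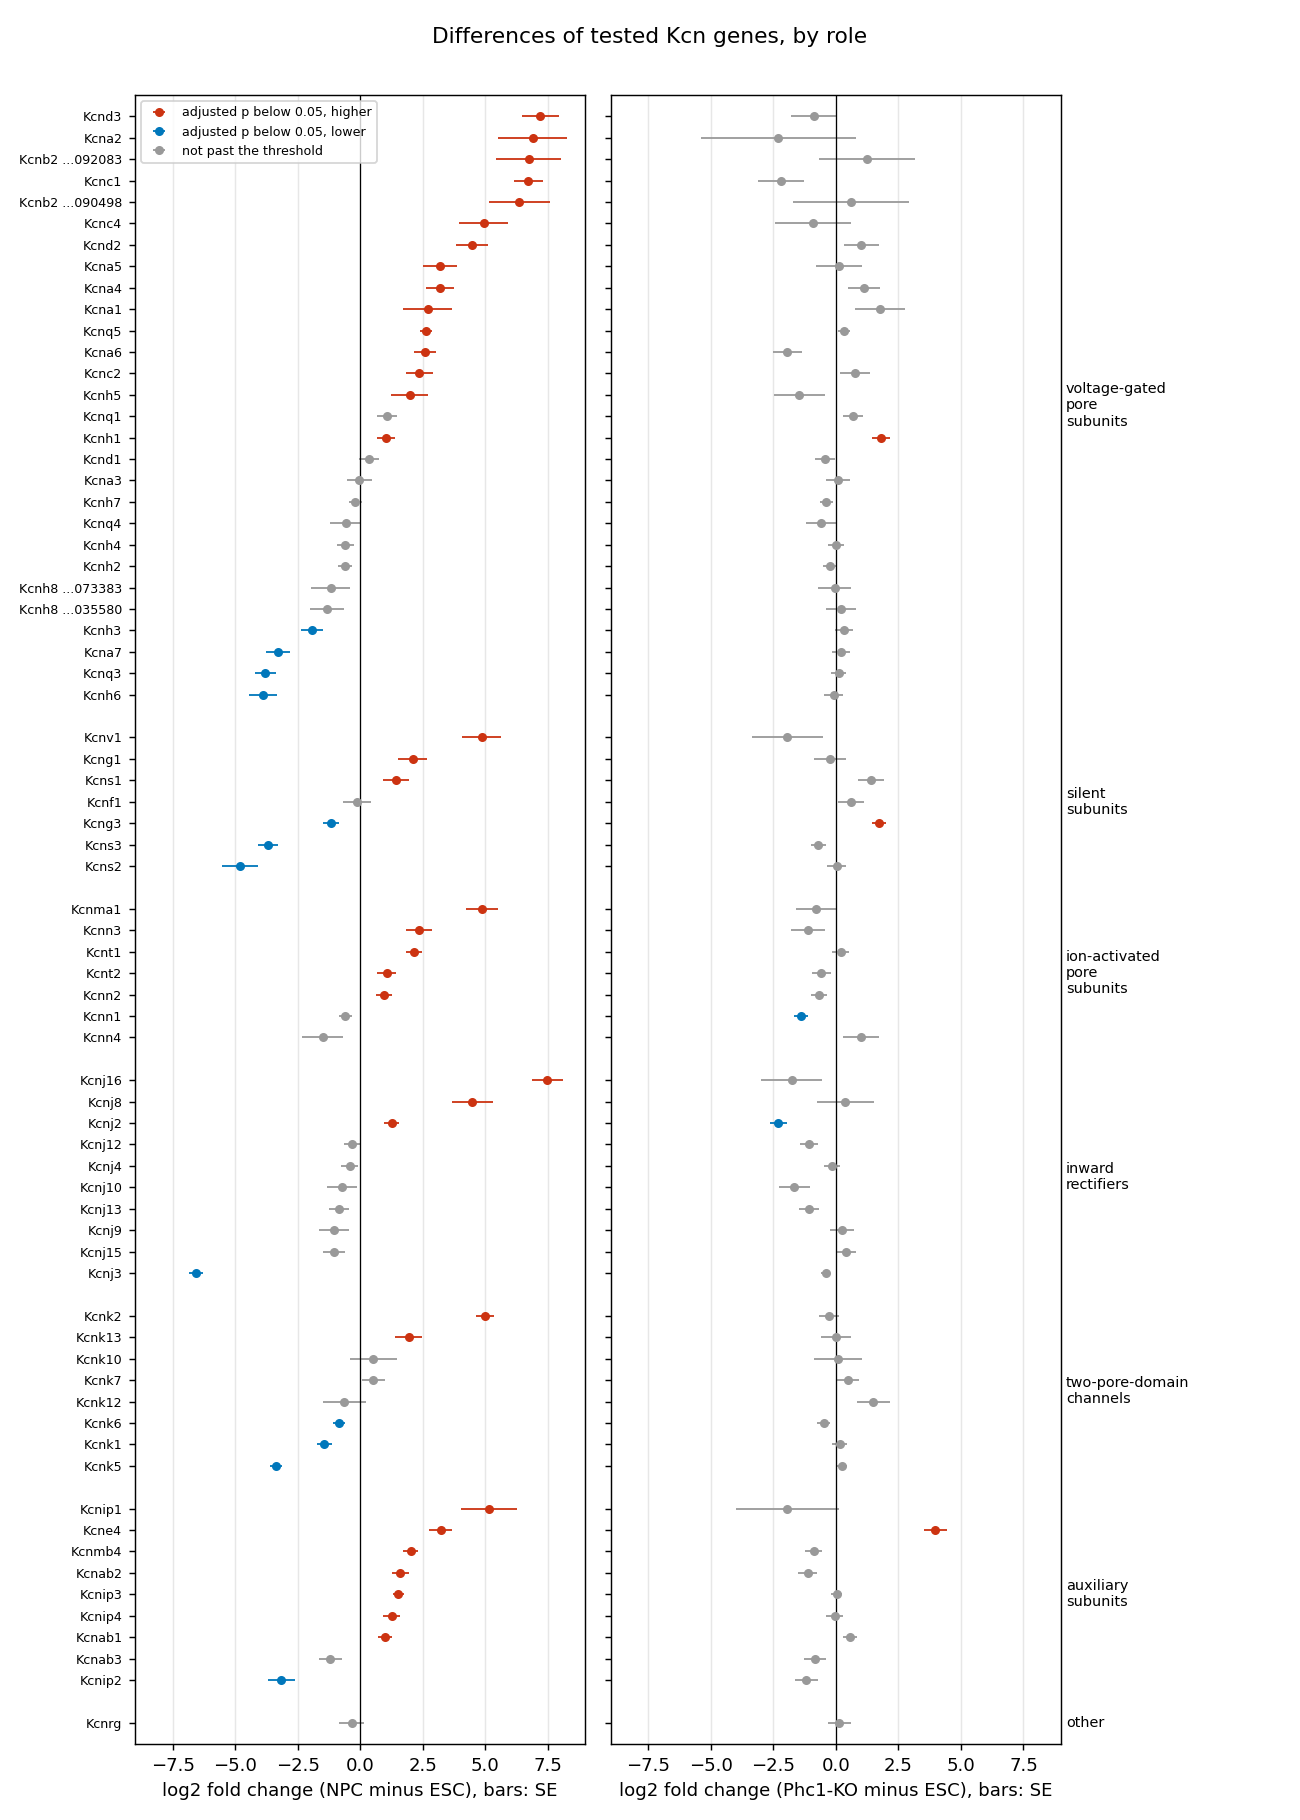
Fitted log2 fold change of tested Kcn genes against ESC, for NPC (left) and Phc1-KO (right), arranged by role, with bars for 1 SE and colours for adjusted p below 0.05 (red higher, blue lower, grey not passing). Of the tested members 3 are not drawn. The calls drawn for NPC are mostly red, and those for Phc1-KO are 3 red and 2 blue.

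Among voltage-gated pore subunits 15 of 31 tested were higher in NPC, 5 were lower and 11 did not pass. The 64.5% that passed is near the 61.3% over all genes, of which 30.4% were higher and 30.9% lower. Kcnd3, which forms the rapidly inactivating A-type channel, was at 1.17 and 1.34 CPM in ESC, 297 and 78.1 CPM in NPC and 0.681 and 0.677 CPM in Phc1-KO. Both NPC libraries lay far above the other 4, and NPC 1 lay above NPC 2. The log2 fold change in NPC was 7.22 (adjusted p = 0.000219, SE 0.73), with 5.95 left without NPC 1 and 7.88 without NPC 2. Kcna2, a delayed rectifier of axons, was at 0.185 and 0.122 CPM in ESC, 35.4 and 3.05 CPM in NPC and 0.0524 and 0 CPM in Phc1-KO. Its rise rested more on 1 library: the log2 fold change was 6.90 (adjusted p = 0.00427, SE 1.38), and 4.26 without NPC 1 or 7.79 without NPC 2. Kcnb2, a slowly inactivating delayed rectifier, leaned to the other NPC library, with 2.56 and 18.6 CPM for its longer model compared to 0 and 0.182 CPM in ESC, while Phc1-KO had 0.209 and 0.242 CPM. With only 3 counts in ESC, its NPC to ESC ratio was 116 with a counting interval of 39.3 to 565 (95%). The second, single-exon Kcnb2 model had 1.25 and 5 CPM in NPC and a ratio of 102 (17.9 to 4087) on 1 count in ESC, and both models passed (adjusted p = 0.00352 for each). The fitted log2 fold change of the longer model was 6.74, and 4.70 without NPC 2, 7.56 without NPC 1 and 5.79 without ESC 1.

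Further increases in this group are named here after their values were seen. Kcnc1, a fast delayed rectifier of rapidly firing neurons, was at 0.925 and 0.973 CPM in ESC, 150 and 53.7 CPM in NPC and 0.262 and 0.145 CPM in Phc1-KO. For this gene the log2 fold change in NPC was 6.73 (adjusted p = 0.000122, SE 0.59), and 5.81 without NPC 1. Kcnc1 and Kcnd3 were thus both higher in each NPC library than in any other library, and both were higher in NPC 1. Kcnd2, the A-type relative of Kcnd3, was at 0.555 and 0.487 CPM in ESC against 17.8 and 5.58 CPM in NPC, and Kcnc4 at 0.432 and 0.0608 CPM and 12.7 and 2.86 CPM. Their log2 fold changes were 4.47 (adjusted p = 0.000969, SE 0.64) and 4.94 (adjusted p = 0.00406, SE 0.98), with a spread of 3.41 to 5.08 and of 3.51 to 6.83 when single libraries were left out, the lowest in each case without NPC 1. The other Kcnd gene, Kcnd1, did not pass, at 6.04 and 6.27 CPM in ESC against 4.8 and 11 CPM in NPC (log2 fold change 0.36, adjusted p = 0.453, SE 0.40). Kcnq5, a subunit of the M-type current, had NPC libraries close to each other. It was at 2.53 and 2.55 CPM in ESC, 17.8 and 14.3 CPM in NPC and 3.14 and 3.24 CPM in Phc1-KO, a log2 fold change of 2.66 (adjusted p = 0.000144, SE 0.24) in NPC.

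Kcna genes, the Shaker relatives, split. Kcna1, Kcna2, Kcna4, Kcna5 and Kcna6 rose, Kcna7 fell, and Kcna3 did not pass. Kcna6 was at 1.23 and 0.73 CPM in ESC, 4.54 and 7.53 CPM in NPC and 0.157 and 0.339 CPM in Phc1-KO, a log2 fold change of 2.61 (adjusted p = 0.0019, SE 0.44) in NPC. Kcna1 was at 0.555 and 0.547 CPM in ESC, 6.64 and 0.649 CPM in NPC and 2.15 and 1.64 CPM in Phc1-KO. Only NPC 1 stood above the Phc1-KO libraries for Kcna1, and its log2 fold change of 2.71 (adjusted p = 0.045, SE 0.97) fell to 0.23 without NPC 1. That call was lost without any 1 library other than NPC 2. Kcna7 ran the other way, from 2.9 and 1.64 CPM in ESC to 0.263 and 0.195 CPM in NPC, a log2 fold change of -3.27 (adjusted p = 0.0011, SE 0.48). It stayed at 2.46 and 2.76 CPM in Phc1-KO, within the range of the ESC pair.

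The 5 voltage-gated genes that fell in NPC included Kcna7, Kcnh3, Kcnh6 and Kcnq3. Kcnq3, a partner of Kcnq5 in M-type channels, was at 3.21 and 3.28 CPM in ESC, 0.329 and 0.13 CPM in NPC and 3.4 and 3.63 CPM in Phc1-KO. Relative to ESC, its log2 fold change in NPC was -3.78 (adjusted p = 0.000341, SE 0.43), and -4.57 without NPC 1. Kcnq subunits therefore moved in both directions, with Kcnq5 higher and Kcnq3 lower. Kcnh6, an Erg-type channel gene, was at 1.97 and 2.07 CPM in ESC, 0.197 and 0.0649 CPM in NPC and 2.41 and 1.4 CPM in Phc1-KO. Its log2 fold change was -3.88 (adjusted p = 0.00111, SE 0.57), and -4.81 without NPC 1, on a total of 4 counts in NPC. Kcnh2, the Erg channel of the heart and the Kcnh gene with the highest level per kb in ESC, was at 6.41 and 5.96 CPM in ESC against 4.34 and 3.83 CPM in NPC and did not pass (log2 fold change -0.60, adjusted p = 0.112, SE 0.29). Kcnq1, which repolarises heart muscle and lies in an imprinted domain, was at 1.3 and 1.16 CPM in ESC, 1.71 and 3.44 CPM in NPC and 2.15 and 1.79 CPM in Phc1-KO. It missed the threshold in NPC (log2 fold change 1.07, adjusted p = 0.0549, SE 0.41) and passed without NPC 1, at 1.49 (adjusted p = 0.0066).

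Of 7 electrically silent subunits tested 3 were higher in NPC (Kcng1, Kcns1, Kcnv1), 3 were lower (Kcng3, Kcns2, Kcns3) and Kcnf1 did not pass. Genes at large were split about evenly too, with 30.4% higher and 30.9% lower. Kcnv1 was at 0.185 and 0.243 CPM in ESC, 10.3 and 2.73 CPM in NPC and 0.0524 and 0.0484 CPM in Phc1-KO, a log2 fold change of 4.87 (adjusted p = 0.00157, SE 0.78) in NPC that was 3.63 without NPC 1 and 5.54 without NPC 2. Kcns3 went from 4.07 and 3.59 CPM in ESC to 0.197 and 0.39 CPM in NPC, with 2.09 and 2.61 CPM in Phc1-KO. The log2 fold change of this gene in NPC was -3.67 (adjusted p = 0.000318, SE 0.41). Kcns2 was at 1.23 and 0.973 CPM in ESC, 0.0658 and 0 CPM in NPC and 1.1 and 1.16 CPM in Phc1-KO, and its single NPC count gives an ESC to NPC ratio of 33.7 with a counting interval of 5.68 to 1369. Both Kcns2 and Kcns3 were thus at 6 counts or fewer in each NPC library. Kcng1 (0.925 and 0.973 CPM in ESC, 5.92 and 2.27 CPM in NPC) had a log2 fold change of 2.10 (adjusted p = 0.0161, SE 0.57), which was 1.25 without NPC 1. Its call was lost without ESC 1, ESC 2 or NPC 1. Kcns1 (0.185 and 0.426 CPM in ESC, 0.789 and 0.909 CPM in NPC) was close to the threshold (adjusted p = 0.0462) and lost its call when any single library was left out, with 0.97 without ESC 1 and 2.14 without ESC 2.

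Of 7 calcium- and sodium-activated channel genes tested 5 rose in NPC and none fell, against 30.4% and 30.9% over all genes, and 3 of the 5 (Kcnn3, Kcnt2, Kcnn2) lost their calls when some single libraries were left out. Kcnma1, the large-conductance channel opened by both calcium and voltage, was at 1.23 and 0.608 CPM in ESC, 41 and 13.1 CPM in NPC and 0.576 and 0.484 CPM in Phc1-KO. Both NPC libraries exceeded the other 4, by a log2 fold change of 4.87 (adjusted p = 0.000672, SE 0.64), with 3.82 without NPC 1 and 5.47 without NPC 2. Kcnmb4, the neuronal beta subunit that joins Kcnma1, rose as well, from 1.48 and 1.52 CPM to 5.46 and 6.82 CPM. For this gene the log2 fold change was 2.03 (adjusted p = 0.00111, SE 0.30), with 0.943 and 0.677 CPM in Phc1-KO. An antisense transcript, 4933400F03Rik, overlaps 20.8% of the Kcnmb4 exon bases, and reads there cannot be assigned without the strand. Kcnt1, a sodium-activated channel gene, went from 1.48 and 1.16 CPM in ESC to 7.04 and 4.87 CPM in NPC, with 1.47 and 1.55 CPM in Phc1-KO (log2 fold change 2.17 in NPC, adjusted p = 0.00112, SE 0.32). Kcnn3, a small-conductance calcium-activated channel gene, went from 0.74 and 0.365 CPM to 3.95 and 1.75 CPM (log2 fold change 2.35, adjusted p = 0.00704, SE 0.53), with 1.66 without NPC 1 and the call lost without ESC 2. Kcnt2 and Kcnn2 were the others that rose, and both lost their calls without any 1 library other than NPC 1. Kcnn4, an intermediate-conductance relative, was at 2.16 and 2.86 CPM in ESC against 1.71 and 0.0649 CPM in NPC, where the libraries disagreed, and did not pass (log2 fold change -1.50, adjusted p = 0.154, SE 0.83).

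By fitted log2 fold change, inward rectifiers held both the largest rise and the largest fall of the family. Neither rank held without NPC 1, where the longer Kcnb2 model rose more (7.56) and Kcns2 fell more (-7.28). Kcnj16, which joins Kcnj10 in glial and kidney channels, was at 0.308 and 0.243 CPM in ESC, 73.1 and 28.4 CPM in NPC and 0.0524 and 0.0968 CPM in Phc1-KO. The NPC pair lay far above all other libraries, with a log2 fold change of 7.49 (adjusted p = 0.000102, SE 0.62) and 6.65 without NPC 1. Kcnj10, its partner and the main glial inward rectifier, was at 3.15 and 2.31 CPM in ESC against 2.76 and 0.584 CPM in NPC. It did not pass (log2 fold change -0.70, adjusted p = 0.339, SE 0.60), and the libraries disagreed: without NPC 1 it was -2.21 and passed (adjusted p = 0.00542), and without NPC 2 it was 0.02. Kcnj3, a subunit of the G-protein-gated channel, was at 38.2 and 37.2 CPM in ESC, 0.395 and 0.39 CPM in NPC and 24.5 and 32.5 CPM in Phc1-KO. Its 12 counts in NPC gave a log2 fold change of -6.56 (adjusted p = 9.99e-06, SE 0.28), a fall of 94.4-fold, with both NPC libraries at the same level. An antisense gene, Gm17595, overlaps 31.1% of the Kcnj3 exon bases and was itself at 15 to 20 counts in ESC and Phc1-KO and 0 in NPC, and with the strand setting of the counting unknown their reads cannot be told apart there. Kcnj8, the pore of a vascular ATP-sensitive channel, rose from 0.247 and 0.0608 CPM to 1.71 and 5.52 CPM (log2 fold change 4.50, adjusted p = 0.00273, SE 0.82), with 3.43 without NPC 2 and 5.72 without ESC 1. Its regulatory partner Abcc9 rose too, from 0.185 and 0.243 CPM to 2.37 and 2.21 CPM (log2 fold change 3.37, adjusted p = 0.000508, SE 0.42). Kcnj2, the classical strong inward rectifier, rose from 3.76 and 3.53 CPM to 10.7 and 6.95 CPM (log2 fold change 1.27, adjusted p = 0.00762, SE 0.29), a call lost without ESC 1 or ESC 2.

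Tandem-pore channels had a different leading gene in NPC. Kcnk2 led them there at 9.59 CPM per kb, with Kcnk1 still at 5.09 CPM per kb. Kcnk5, an alkaline-activated leak channel gene, was at 46.2 and 43.8 CPM in ESC, 5.13 and 3.57 CPM in NPC and 45.5 and 60.5 CPM in Phc1-KO, and Kcnk1, a weak leak channel gene, at 32 and 30.8, 15.1 and 8.31, and 28.5 and 41.2 CPM. Every NPC library lay below every ESC and Phc1-KO library for both genes. The log2 fold changes in NPC were -3.37 (adjusted p = 5.67e-05, SE 0.24) for Kcnk5 and -1.42 (adjusted p = 0.00609, SE 0.31) for Kcnk1. Kcnk2, a leak channel opened by stretch and lipids, went the other way, from 0.678 and 1.46 CPM in ESC to 36 and 33.4 CPM in NPC. With 0.733 and 1.02 CPM in Phc1-KO it had a log2 fold change of 5.01 (adjusted p = 5.38e-05, SE 0.35) in NPC, and 5.65 without ESC 2, and its NPC pair lay closer together than those of Kcnd3, Kcnc1 and Kcnj16. Of the 8 tested 2 rose and 3 fell in NPC, against 30.4% and 30.9% over all genes. Kcnk6 also fell (6.66 and 7.24 CPM to 3.42 and 4.29 CPM) and Kcnk13 also rose (0.37 and 0.182 CPM to 1.38 and 0.779 CPM). Both of these calls were lost without ESC 1 or ESC 2, and that of Kcnk13 without NPC 1 too, where its log2 fold change went from 1.94 to 1.48.

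Of 9 auxiliary subunits tested 7 rose in NPC, 1 fell and Kcnab3 did not pass, against 30.4% higher and 30.9% lower over all genes. Kcnip proteins, calcium sensors that bind Kcnd channels, split: Kcnip1, Kcnip3 and Kcnip4 rose and Kcnip2 fell. Kcnip1 was at 0.123 and 0.304 CPM in ESC, 13.7 and 1.95 CPM in NPC and 0 and 0.0968 CPM in Phc1-KO. Relative to ESC, its log2 fold change was 5.15 (adjusted p = 0.006, SE 1.12), with 3.14 without NPC 1 and 5.96 without NPC 2, the same lean to NPC 1 as for Kcna2. Kcnip2 was at 6.23 and 6.69 CPM in ESC, 1.18 and 0.26 CPM in NPC and 2.41 and 3.24 CPM in Phc1-KO, a log2 fold change of -3.15 (adjusted p = 0.00212, SE 0.54) in NPC, with -4.60 without NPC 1 and -2.44 without NPC 2. Kcnip4 was the auxiliary gene with the highest level per kb in NPC, at 7.96 and 14.9 CPM against 4.93 and 4.62 CPM in ESC (log2 fold change 1.26, adjusted p = 0.0132, SE 0.33), a call lost without ESC 1 or ESC 2. Kcne4, a single-span subunit that inhibits several voltage-gated channels, rose from 0.555 and 0.487 CPM to 5.59 and 4.29 CPM (log2 fold change 3.23, adjusted p = 0.000891, SE 0.46), and was the 1 member of the 5 Kcne genes with enough reads to test. Kcnrg, whose product interferes with assembly of voltage-gated subunits, was at 1.42 and 1.22 CPM in ESC against 0.526 and 1.56 CPM in NPC and did not pass.

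The NPC libraries differed from each other in the potassium channel genes by more than genes at large. The median absolute log2 difference between NPC 1 and NPC 2 was 0.67 over the 73 tested members and 0.25 over all tested genes, computed on CPM plus 0.5. The members and all genes were not matched for level, and only 15 of the 96 members had a mean above 10 CPM in NPC. The part of low counts in this gap was not tested. Members higher in NPC 1 numbered 48 and those higher in NPC 2 numbered 25, against 8904 and 8291 over all genes. Among the 35 members called higher in NPC, 8 were over 3-fold higher in NPC 1 than in NPC 2 and 4 over 3-fold higher in NPC 2. These are values of 1 library against 1, with no test. Kcna2, Kcnd3, Kcnv1 and Kcnip1 were high in NPC 1, while Kcnb2 and Kcnj8 were high in NPC 2. Marker levels differed between the NPC libraries too, in both directions. The summed progenitor markers were at 3650 CPM (NPC 1) against 1657 CPM (NPC 2), the summed astrocyte markers at 989 and 2092 CPM, and the summed fibroblast markers at 7108 and 11237 CPM. Within the astrocyte list Gfap (3.81 and 112 CPM) and Aqp4 (15.8 and 458 CPM) were far higher in NPC 2, while Aldh1l1 (77.5 and 78.0 CPM) and S100b (10.7 and 8.44 CPM) were not. Their part in these differences was not tested.

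**Figure D3:**
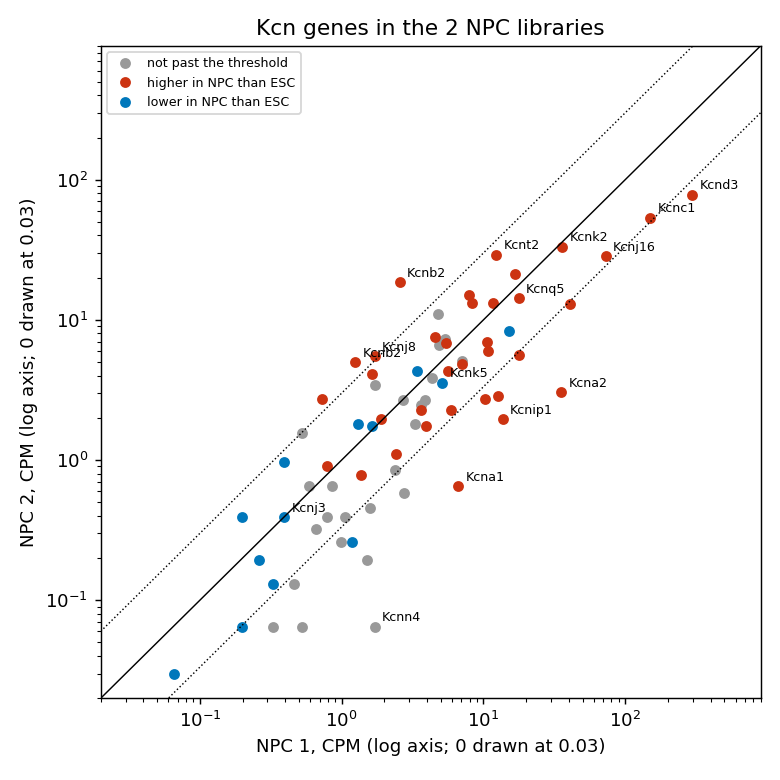
CPM of each tested Kcn gene in NPC 1 (x axis) and NPC 2 (y axis), both on a log scale with 0 drawn at 0.03, and colours for the call against ESC. The solid line marks equal levels and the dotted lines a 3-fold difference. Kcnd3, Kcna2 and Kcnip1 lie on the NPC 1 side, and Kcnb2 and Kcnj8 on the NPC 2 side.

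In the Phc1-KO libraries few potassium channel genes differed from ESC. Of the 73 tested members 3 were higher (Kcne4, Kcng3, Kcnh1), 2 were lower (Kcnj2, Kcnn1) and 68 did not pass. The members' 6.85% compares with 10.7% over all genes tested, of which 4.91% passed as higher and 5.75% as lower, and 14 members had an unadjusted p below 0.05. The median log2 fold change of the members was -0.004, with 36 positive and 37 negative, and 48 of the 73 were within 1 of 0 on the log2 scale. These calls share their ESC controls with the NPC comparison. None of the 5 was kept in every alternative, and each was lost without ESC 1 or ESC 2. The members called, not always the same genes, changed with the library left out.

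Kcne4 had the largest change. It was at 0.555 and 0.487 CPM in ESC, 5.59 and 4.29 CPM in NPC and 10.9 and 5.71 CPM in Phc1-KO. Both Phc1-KO libraries were above both ESC libraries, and both were above the NPC pair, which rose in its own comparison. The log2 fold change in Phc1-KO was 3.98 (adjusted p = 0.00597, SE 0.45), and the call was lost only without ESC 1 (adjusted p = 0.0562) or ESC 2 (adjusted p = 0.061). Kcng3, a silent subunit gene, was at 2.96 and 4.14 CPM in ESC, 1.32 and 1.82 CPM in NPC and 10.5 and 13.1 CPM in Phc1-KO. It was higher in Phc1-KO (log2 fold change 1.73, adjusted p = 0.0168, SE 0.29) and lower in NPC (-1.18, adjusted p = 0.016, SE 0.32), and the 3 groups did not overlap. The Phc1-KO call was lost without ESC 1, ESC 2 or Phc1-KO 2, and the NPC call without ESC 2 or NPC 1. Kcnh1, an Eag-type voltage-gated channel gene, was at 1.54 and 1.34 CPM in ESC, 3.62 and 2.27 CPM in NPC and 5.87 and 4.16 CPM in Phc1-KO. It was higher than ESC in both, by a log2 fold change of 1.79 (adjusted p = 0.0264, SE 0.35) in Phc1-KO and 1.03 (adjusted p = 0.0424, SE 0.36) in NPC. Both calls were lost without any 1 library of the groups compared, except the NPC call without NPC 2.

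Kcnj2 was at 3.76 and 3.53 CPM in ESC against 0.733 and 0.726 CPM in Phc1-KO, the lowest of all 6 libraries, and had a log2 fold change of -2.31 (adjusted p = 0.0115, SE 0.34). It moved the other way from its rise in NPC (10.7 and 6.95 CPM). Without any 1 of the ESC or Phc1-KO libraries the value stayed between -2.36 and -2.26 and the call was lost. Kcnn1, a small-conductance calcium-activated channel gene, was at 10.7 and 8.33 CPM in ESC, 5.39 and 7.34 CPM in NPC and 3.35 and 3.92 CPM in Phc1-KO. Its log2 fold change in Phc1-KO was -1.39 (adjusted p = 0.0263, SE 0.27), lost likewise without any 1 of those 4 libraries, and it did not pass in NPC (-0.58, adjusted p = 0.0955, SE 0.27). For Kcnj2 and Kcnn1 the Phc1-KO pair was the lowest of the 3 groups, with no overlap. Kcna6, at 0.157 and 0.339 CPM in Phc1-KO, missed the threshold (log2 fold change -1.94, adjusted p = 0.0768, SE 0.58). Kcnj12, another strong inward rectifier gene, was at 3.08 and 3.22 CPM in ESC against 1.57 and 1.4 CPM in Phc1-KO and also missed it (log2 fold change -1.08, adjusted p = 0.0955, SE 0.35). Kcna6 and Kcnj12 are named here after their values were seen.

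The 3 genes with the highest levels per kb in ESC did not pass in Phc1-KO. The log2 fold change of Kcnk5 was 0.24 (adjusted p = 0.495, SE 0.21) with an interval of -0.26 to 0.73 (95%), that of Kcnk1 was 0.15 (adjusted p = 0.774, SE 0.30) with an interval of -0.55 to 0.85, and that of Kcnj3 was -0.40 (adjusted p = 0.2, SE 0.19) with an interval of -0.84 to 0.04. Without Phc1-KO 2 the value of Kcnk1 changed sign, to -0.14. Of the 5 members that rose over 100-fold in NPC, none passed in Phc1-KO, and 4 were lower there than in ESC by CPM. Kcnd3 (0.681 and 0.677 CPM), Kcnc1 (0.262 and 0.145 CPM), Kcna2 (0.0524 and 0 CPM) and Kcnj16 (0.0524 and 0.0968 CPM) were below both ESC libraries. The longer model of Kcnb2 (0.209 and 0.242 CPM) was above both ESC libraries (0 and 0.182 CPM). Apart from Kcnd3, these Phc1-KO levels rest on few reads, with 1 count worth 0.0524 CPM in Phc1-KO 1 and 0.0484 CPM in Phc1-KO 2. Kcnq1 at 2.15 and 1.79 CPM did not pass either (log2 fold change 0.68, adjusted p = 0.312, SE 0.41).

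**Figure D4:**
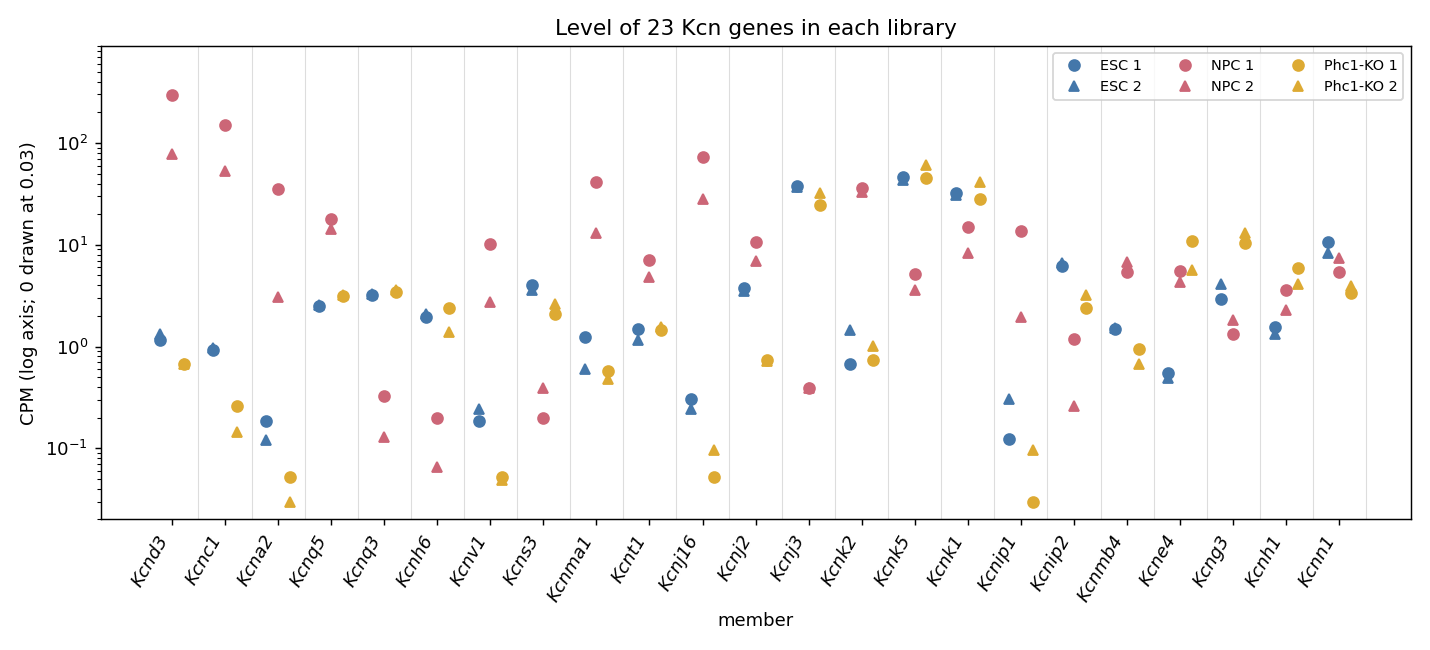
CPM in each of the 6 libraries, on a log scale with 0 drawn at 0.03, for 23 Kcn genes the results turn on, with circles for library 1, triangles for library 2 and colours for the groups. The NPC points stand apart for Kcnd3, Kcnc1 and Kcnj16 (higher) and for Kcnj3 and Kcnk5 (lower), and the Phc1-KO points stand apart for Kcnj2 (lower) and Kcng3 (higher).

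Neighbouring members did not always move together. Kcnj16 and Kcnj2 lie 38195 bases apart on chromosome 11 (chr11:110829347-110938135, mm9), and both rose in NPC, by log2 fold changes of 7.49 and 1.27. In Phc1-KO both were below ESC, at -1.78 and -2.31, and only Kcnj2 passed. The Kcnj16 value rested on 9 counts in ESC and 3 in Phc1-KO, an ESC to Phc1-KO ratio of 3.65 with a counting interval of 0.912 to 21. Kcna1 and Kcna6, 62527 bases apart on chromosome 6, were both called higher in NPC as well, but the log2 fold change of Kcna1 was 0.23 without NPC 1. In Phc1-KO neither passed and their signs were opposite. With 1 library left out, Kcna1 ran there from 1.57 to 1.95 and Kcna6 from -2.58 to -1.51. Kcna2 and Kcna3, 63437 bases apart on chromosome 3, gave different calls: Kcna2 rose, while Kcna3 was at 0.802 and 0.669 CPM in ESC against 1.05 and 0.39 CPM in NPC and did not pass (log2 fold change -0.03, adjusted p = 0.962, SE 0.51). Kcna10, 76176 bases from Kcna2 on its other side, had at most 1 count in any library. Kcnj10 and Kcnj9, 11946 bases apart on chromosome 1, both had negative values in NPC that did not pass (-0.70 and -1.04). Kcnk16, 80973 bases from Kcnk5 on chromosome 14, had 0 counts. Kcne1 and Kcne2 on chromosome 16, Kcnj1 and Kcnj5 on chromosome 9, and Kcnmb1, which overlaps Kcnip1 on chromosome 11, had at most 10 counts in any library apart from Kcnip1.

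Genes that set the potassium gradient or belong to related channels were counted for background. Of 10 sodium-potassium pump genes tested 3 rose in NPC and 4 fell, near the 30.4% and 30.9% over all genes. Atp1b2, a beta subunit of the pump found in glia, rose from 8.39 and 8.03 CPM to 36.3 and 27.1 CPM (log2 fold change 1.95, adjusted p = 0.000372, SE 0.22), and Fxyd6, a pump regulator, fell from 87.8 and 89.3 CPM to 50.6 and 41.9 CPM (log2 fold change -0.94, adjusted p = 0.0023, SE 0.16). In Phc1-KO 3 pump genes fell and none rose, against 5.75% and 4.91% over all genes. Atp1b2 was at 3.56 and 2.9 CPM (log2 fold change -1.34, adjusted p = 0.0191, SE 0.24) and Fxyd6 at 28.3 and 34.6 CPM (log2 fold change -1.49, adjusted p = 0.00585, SE 0.17). Atp1b2 thus lay above ESC in NPC and below ESC in Phc1-KO. Its Phc1-KO call was lost without any 1 of the ESC or Phc1-KO libraries, and that of Fxyd6 without either ESC library.

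Of 5 potassium cotransporter genes tested 2 rose in NPC (Slc12a4, and Slc12a5 with its call lost without ESC 1 or ESC 2) and Slc12a7 fell. In Phc1-KO 2 fell, among them Slc12a7 (log2 fold change -0.67, adjusted p = 0.0398, SE 0.15), whose call was lost without ESC 1, ESC 2 or Phc1-KO 2. Of 7 auxiliary partner genes tested 3 rose in NPC, Abcc9 and Amigo1 among them, Abcc8 fell, and none passed in Phc1-KO. The call of Amigo1 was lost without any 1 library other than NPC 2, and its log2 fold change went from 0.89 to 0.36 without NPC 1. Among 5 related pore channels tested, Hcn2, Cnga3 and Cngb1 fell in NPC, and 1 of the 5 rose in Phc1-KO. For these 3 short lists the shares over all genes were 30.4% higher and 30.9% lower in NPC, and 4.91% and 5.75% in Phc1-KO.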

How the data were processed

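RNA from 6 cultures (2 each of ESC, NPC and Phc1-KO) was rRNA-depleted and sequenced. Per the submitters' processing notes, the authors used STAR and HTSeq on build mm9; no source used here gives their versions, the annotation or the strand setting. The deposited files hold whole-number counts per Ensembl gene. The 5 HTSeq tally rows, 68.5% to 73.8% of all rows' counts, were left out. Symbols and positions came from GENCODE M1 (mm9), which named 37205 of 37620 genes.

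Counts were filtered with filterByExpr (minimum count 10, minimum total 15), scaled by TMM and fitted over all 6 libraries with edgeR 4.0.16 in R 4.3.3 (quasi-likelihood test, Benjamini-Hochberg adjustment over 17489 genes, threshold 0.05, 3 residual degrees of freedom). SE is the log2 fold change divided by the square root of F. CPM uses the TMM library size. Counting intervals (95%) cover counting error only. The p-values use a spread per gene that is pooled over all 6 libraries, 2 per group. Those for Phc1-KO against ESC thus also carry the spread of the NPC pair, and those for NPC that of the Phc1-KO pair. The procedure was tested on simulated data in which all groups had the same spread per gene. The groups here differ in spread, which that simulation does not cover.

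Genes named were, per role group and comparison, the up to 3 largest increases and decreases past the threshold, every member called in Phc1-KO, the leading gene per kb in each group, Kcnq1, members of counts of 5 or fewer, and neighbours within 100 kb; others are said to be named afterwards. Members and lists were chosen with earlier results of these data known. Alternatives were DESeq2 1.42.0, limma-voom (limma 3.58.1), other scalings and filters, a test against a 2-fold change, only the 2 groups compared, a replicate block, the ESC pair counted as 1, and each library left out. Some genes are not reported here.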

Additional observations from a re-analysis of the deposited data

How the results depend on the processing

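Against the 35 higher and 13 lower Kcn members in NPC, the test against a 2-fold change gave 23 higher, and leaving out 1 library gave 22 to 32 higher and 10 to 20 lower, with 20 without NPC 1. Against the 3 higher and 2 lower members in Phc1-KO, the test against a 2-fold change gave 1 and 0, a fit of only the 2 groups compared gave 5 and 8, counting the ESC libraries as 1 gave 1 and 0, and leaving out 1 library gave 0 to 5 and 0 to 8. A replicate block gave 34 higher and 13 lower in NPC and 3 and 2 in Phc1-KO. The replicate numbers did not pair the libraries, since the deviations of same-numbered libraries correlated at 0.0174, 0.0202 and -0.0207. With 1 library left out, the log2 fold change of Kcnj10 in NPC ran from -2.21 (without NPC 1) to 0.024 (without NPC 2), and that of Kcnk1 in Phc1-KO from -0.14 (without Phc1-KO 2) to 0.40 (without Phc1-KO 1). Kcne4 stayed called in Phc1-KO in every alternative except those without ESC 1 or ESC 2. Other scalings moved the median over all genes by less than 0.1 on the log2 scale. At 0.0484 to 0.0658 CPM per count, the 23 untested members, with at most 24 counts in a library, gave no test. The cause of these changes was not tested.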

Other observations

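Kcnab genes encode cytoplasmic beta subunits of Kcna channels. They and Kcnip3 are given here after their values were seen. Kcnab1 was at 9.68 and 9.43 CPM in ESC, 16.6 and 21.2 CPM in NPC and 17.4 and 10.7 CPM in Phc1-KO, and Kcnab2 at 2.53 and 2.98, 10.9 and 6.04 and 1.1 and 1.4 CPM. Both rose in NPC, by edgeR log2 fold changes of 0.99 (adjusted p = 0.0174, SE 0.28) and 1.61 (adjusted p = 0.0062, SE 0.35), with the call of Kcnab1 lost without ESC 1, ESC 2 or NPC 2 and that of Kcnab2 without ESC 1. Kcnab3 was at 3.15 and 4.2 CPM in ESC against 2.37 and 0.844 CPM in NPC and did not pass. In Phc1-KO none of the 3 passed. Kcnip3, a calcium-binding protein also known as the repressor DREAM, rose in NPC from 4.32 and 4.26 CPM to 11.7 and 13.1 CPM, a log2 fold change of 1.53 (adjusted p = 0.000964, SE 0.22), with the NPC libraries close to each other.

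Kcnh7, an Erg-type gene named after its values were seen, did not pass in either comparison while keeping a level above 1 CPM in all 6 libraries. It was at 6.72 and 7.06 CPM in ESC, 7.04 and 5.06 CPM in NPC and 5.92 and 4.69 CPM in Phc1-KO. Among the untested members the highest count was 24, for Kcnk3 in NPC 1.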
